A study of Mus musculus with 6 samples.

Results

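SREBP regulators and cholesterol uptake genes were followed in the sciatic nerve of mouse pups at postnatal day 4 (P4). The 7 genes, Srebf1, Srebf2, Scap, Insig1, Insig2, Stard4 and Mylip, were chosen by symbol, and each was found once among the 59485 genes of the table. Messenger RNA was sequenced from the nerves of 6 animals, 1 per library. The 3 control-labelled animals, called wild-type in the labels, carried Adar1 alleles flanked by loxP sites (both alleles or only one) and the R26R reporter, without Cre. The 3 mutant-labelled animals carried Ht-PA-Cre, both floxed Adar1 alleles and R26R. Ht-PA-Cre is driven by a human tissue plasminogen activator promoter and acts in neural crest (NC) derivatives, so that Schwann cells (SCs) are targeted whereas endothelial cells, blood cells and other cells without NC origin in the same nerve are not. ADAR1, encoded by Adar, converts adenosine to inosine in double-stranded RNA.

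SREBP-1 and SREBP-2, encoded by Srebf1 and Srebf2, are transcription factors made as membrane proteins of the endoplasmic reticulum. When membrane cholesterol is low, the escort protein SCAP carries them to the Golgi, where proteases release the part that enters the nucleus and activates genes of sterol and fatty acid synthesis; when sterols are abundant, INSIG1 and INSIG2 hold SCAP back. SCs make large amounts of cholesterol and fatty acids while they build myelin, which in the mouse sciatic nerve is under way in the first postnatal week. Transcript levels, as measured here, do not report the cleavage of SREBPs.

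Between 50938349 and 78250094 reads per library fell on genes. The values given are normalised read counts, that is read counts divided by a size factor of the library, and 1 read was worth between 0.727 and 1.27 units. Libraries of the same genotype correlated with each other at r = 0.941 to 0.951 over genes, and libraries of different genotypes at 0.855 to 0.884. The targeted gene went against the labels in total level: Adar read 1602, 2066 and 1133 in the control-labelled libraries and 11768, 9311 and 9773 in the mutant-labelled ones (log2 fold change 2.72, SE 0.20). The table holds 1 value for the whole gene and therefore does not check the deleted exons, and the genotypes below are those of the labels. SC markers were present in all 6 libraries, although the summed value of 6 of them lay between 1123149 and 1487769 for the control label and between 44928 and 198931 for the mutant label. From bulk RNA values alone, fewer cells of a type and less RNA per cell cannot be told apart. In P4 sciatic nerves of this model, the paper counted similar SC numbers in mutants and controls by electron microscopy.

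The sequences upstream of the genes are shown because the members include both regulators and targets of SREBPs, and the letters that such factors are known to bind can be looked for in them. Windows of 250 bases before a transcript start were taken from RefSeq on GRCm38.p6, the assembly that mm10 names, and 6 of the 7 genes matched. Both strands were searched for a sterol regulatory element (SRE), spelled TCACNCCA, and for the palindromic E-box spelled CACGTG. They were also searched for the CCAAT box, named by its own letters, and for the GC box spelled GGGCGG. An SRE and a CCAAT box can share letters, but no matches overlapped in the windows printed. Of 32851 windows from all genes, 3.67% held the SRE letters, 6.02% the E-box, 33.8% the CCAAT box and 32.7% the GC box. The 6 genes had 11 windows, since Srebf1 and Insig2 have 3 starts each and Scap 2. The SRE letters were present in 1 of these 11 windows (Srebf2), the E-box in 2 (Insig1 and Scap), the CCAAT box in 6 and the GC box in 8. The windows of 4 genes are printed 5′ to 3′ on the gene's strand, with SRE, E-box and CCAAT matches in capitals. Each stops before the earliest start that the table or GENCODE gives inside the window, where there is such a start. The first 2 genes fell between genotypes and the other 2 did not pass the test.
Insig1: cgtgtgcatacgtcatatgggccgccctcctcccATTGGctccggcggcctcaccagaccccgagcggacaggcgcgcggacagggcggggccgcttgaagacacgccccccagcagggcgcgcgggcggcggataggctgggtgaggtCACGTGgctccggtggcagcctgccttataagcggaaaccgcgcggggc
Srebf2: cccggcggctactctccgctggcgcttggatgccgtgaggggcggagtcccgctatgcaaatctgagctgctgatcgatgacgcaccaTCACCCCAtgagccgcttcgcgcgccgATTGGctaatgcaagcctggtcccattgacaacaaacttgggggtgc
Srebf1: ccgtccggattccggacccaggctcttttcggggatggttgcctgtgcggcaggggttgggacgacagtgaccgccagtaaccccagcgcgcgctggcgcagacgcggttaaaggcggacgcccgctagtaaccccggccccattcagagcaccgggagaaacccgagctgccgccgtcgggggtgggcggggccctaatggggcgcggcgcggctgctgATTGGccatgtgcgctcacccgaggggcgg
Mylip: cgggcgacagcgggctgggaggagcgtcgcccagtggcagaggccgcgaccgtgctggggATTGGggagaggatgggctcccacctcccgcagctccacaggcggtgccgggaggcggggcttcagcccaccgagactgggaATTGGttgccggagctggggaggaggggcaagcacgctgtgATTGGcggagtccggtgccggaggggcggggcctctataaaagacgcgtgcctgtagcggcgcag
The Insig1 window lay on the plus strand at chr5:28071162-28071359 and held an E-box at −101 to −96 and a reverse CCAAT box at −216 to −212, counted from the RefSeq start, with −1 the base just before it. The Srebf2 window, chr15:82147019-82147180 on the plus strand, held TCACCCCA at −162 to −155 and a reverse CCAAT box at −135 to −131. Srebf1 has 3 starts in RefSeq, none with an SRE or E-box match, and the window shown (minus strand, chr11:60210472-60210721) belongs to the start furthest inside the gene. Mylip (plus strand, chr13:45389492-45389739) held 3 reverse CCAAT boxes. Among the cholesterol synthesis enzymes listed further on, 15 of 20 had a window, and 2 of these 15 genes held the SRE letters in at least 1 window, a count by gene that is not on the scale of the shares by window. A match of letters is a description and not a measured binding site. Only 1 spelling of the SRE in 250 bases was searched, so a missing match does not show that a gene lacks an SRE.

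Of the 7 genes, 3 fell at least 2-fold in the mutant-labelled libraries, Insig1, Srebf2 and Stard4, and 0 rose by as much. The changes were graded from 8.67-fold lower for Insig1 to 1.42-fold higher for Insig2. The fit was limma on log2(value + 1) over the 25802 genes whose mean reached 10 in a genotype, and all 7 genes passed that filter. Among all tested genes, 10.4% fell and 13.9% rose by at least 2-fold at an unadjusted p of at most 0.05. At a Benjamini-Hochberg adjusted p of at most 0.05, 4 of the 7 were lower, Scap being the addition, and 1 was higher (Insig2), where 16.0% of all tested genes were lower and 19.0% higher. The 3 values of each genotype did not overlap for the same 5 genes, 4 lower and 1 higher, and such separation was seen for 23.3% of all tested genes in the lower and 25.9% in the higher direction. The median log2 fold change over all tested genes was 0.03.

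**Figure D1:**
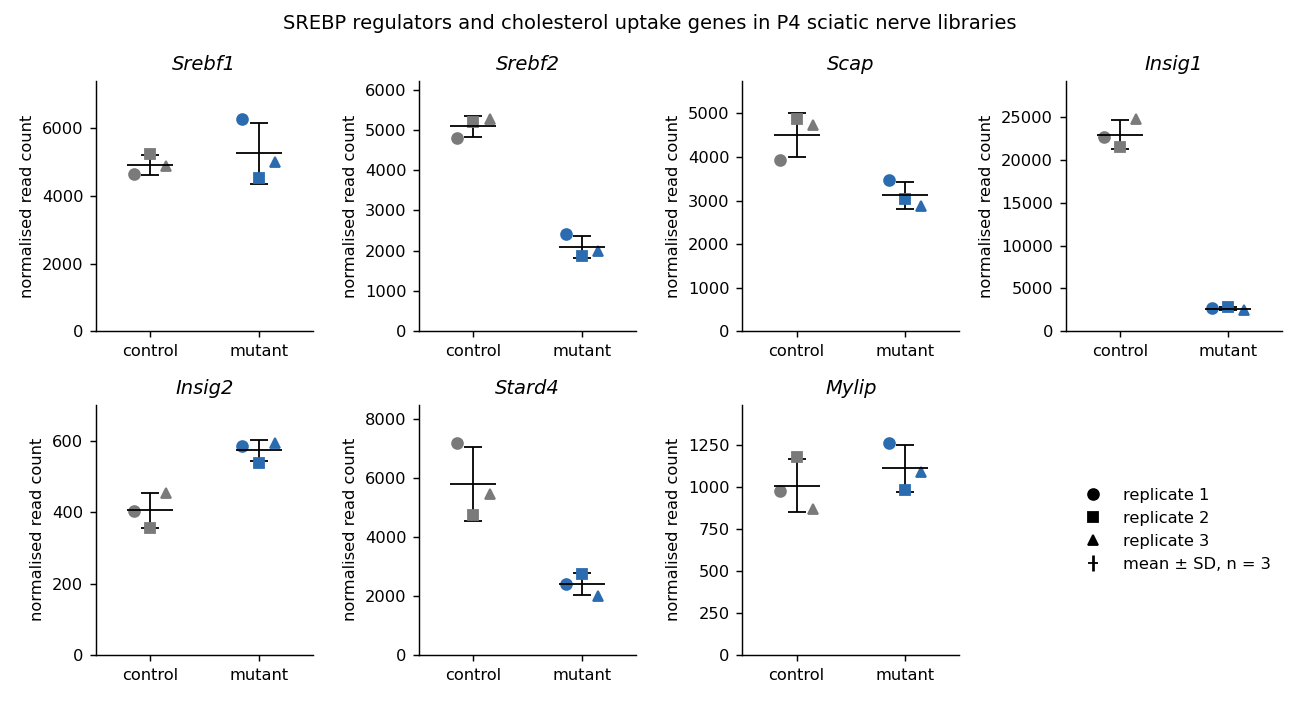
Normalised read counts of the 7 genes (vertical axis, from 0) in the 3 control-labelled (grey) and 3 mutant-labelled (blue) libraries, with the mean ± SD and one symbol shape per replicate number. The mutant-labelled values of Insig1, Srebf2, Stard4 and Scap all lie under the control-labelled ones, those of Insig2 all lie above, and those of Srebf1 and Mylip overlap.

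The 2 SREBP genes differed from each other. Srebf2, whose product mainly activates genes of sterol synthesis and uptake (plus strand, chr15:82147203-82205376), read 4794, 5205 and 5269 in control-labelled and 2415, 1874 and 1994 in mutant-labelled libraries. Every mutant-labelled value was therefore under the lowest control. The means were 5089 ± 258 and 2094 ± 284 (SD, n = 3 each), a log2 fold change of −1.29 (SE 0.12, 95% interval −1.56 to −1.02; limma adjusted p = 0.000104), which is 2.44-fold lower.

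Srebf1 (minus strand, chr11:60199084-60222581), whose products mainly activate fatty acid and triglyceride synthesis, read 4643, 5237 and 4875 in control-labelled and 6269, 4522 and 5003 in mutant-labelled libraries. The groups overlapped, and mutant replicate 1 was the highest and mutant replicate 2 the lowest of all 6. The log2 fold change was 0.09 with a 95% interval of −0.21 to 0.38 (limma adjusted p = 0.640), so a 2-fold change in either direction lay outside the interval. The table gives 1 value for Srebf1, and its isoforms, which start at different first exons, were not separated. The 3' end of Rai1, on the other strand, overlaps Srebf1 by 112 bases.

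Within each library the log2 ratio of Srebf2 to Srebf1 was 0.05, −0.01 and 0.11 in control-labelled and −1.38, −1.27 and −1.33 in mutant-labelled libraries. The mean went from 0.05 ± 0.06 to −1.32 ± 0.05 (SD, n = 3 each), a difference of −1.37 or 2.59-fold, which at these digits does not depend on the size factors. The 2 groups of ratios did not overlap, and an exact two-sided permutation test gave p = 0.1, the smallest that 3 against 3 libraries allow.

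Scap (plus strand, chr9:110333288-110384949), the gene of the escort and sterol sensor, read 3921, 4867 and 4730.5 in control-labelled and 3466, 3027 and 2867 in mutant-labelled libraries. The highest mutant-labelled value stood under the lowest control, and the fall was smaller than for Srebf2: from 4506 ± 511 to 3120.0 ± 310.1 (SD, n = 3 each), log2 fold change −0.53 (SE 0.12, 95% interval −0.80 to −0.25; limma adjusted p = 0.0102). That is 1.44-fold lower, short of 2-fold, and the adjusted p was 0.0577 when the prior variance was held the same at all levels of expression.

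The 2 INSIG genes moved in opposite directions. Insig1 (plus strand, chr5:28071360-28078661), itself a known SREBP target, read 22692, 21499 and 24797 in control-labelled and 2692, 2820.3 and 2440.0 in mutant-labelled libraries. The mean went from 22996 ± 1669.6 to 2651 ± 193 (SD, n = 3 each), a log2 fold change of −3.12 (SE 0.10, 95% interval −3.34 to −2.90; limma adjusted p = 1.23e-06). Counted from the most negative change, Insig1 stood at rank 420 of the 25802 tested genes, with 1.63% of them at or under its value. An unnamed row of the table on the opposite strand covers the same stretch, and its values were 475, 522 and 580.4 in control-labelled and 74.2, 92.6 and 31.7 in mutant-labelled libraries, or 2.29% and 2.50% of the Insig1 means.

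Insig2 (minus strand, chr1:121304353-121332589), which holds SCAP back in the same manner but is not known as a strong SREBP target, read 404, 357 and 455 in control-labelled and 586, 539 and 594 in mutant-labelled libraries. All mutant-labelled values were above the highest control, with means of 405 ± 48.9 and 573 ± 29.7 (SD, n = 3 each). The log2 fold change was 0.50 (SE 0.16, 95% interval 0.14 to 0.87; limma adjusted p = 0.0384). This call was near its threshold: in 9 of 18 alternative fits the adjusted p was above 0.05, at most 0.133 without control replicate 2 (log2 fold change 0.42).

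The log2 ratio of Insig1 to Insig2 was 5.81, 5.91 and 5.77 in control-labelled and 2.20, 2.38 and 2.04 in mutant-labelled libraries. The SD within a genotype, 0.07 and 0.17, was small beside the difference between the means of 5.83 and 2.21, which came to −3.62 or 12.3-fold (exact two-sided permutation p = 0.1, the smallest possible). These are ratios of read counts not corrected for transcript length, so the comparison is of the ratio between genotypes and not of one gene's level with the other's.

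**Figure D2:**
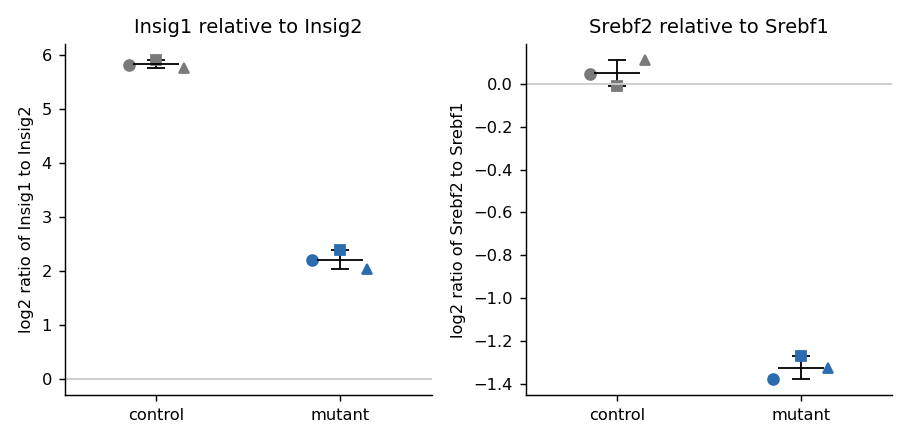
Log2 ratio of the normalised read counts of Insig1 to Insig2 (left) and of Srebf2 to Srebf1 (right) in each control-labelled (grey) and mutant-labelled (blue) library, with mean ± SD; neither vertical axis is a level of expression. Both ratios are lower in all 3 mutant-labelled libraries, with differences of −3.62 and −1.37 on the log2 scale.

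Stard4 and Mylip act on the transport and the uptake of cholesterol. Stard4 (minus strand, chr18:33199138-33213862) encodes a soluble protein that carries cholesterol between membranes and is a known SREBP target. It read 7185, 4755 and 5455 in control-labelled and 2403, 2752 and 2008 in mutant-labelled libraries. Control replicate 1 was high, yet the lowest control still exceeded every mutant-labelled value, and the mean went from 5798 ± 1251 to 2388 ± 372 (SD, n = 3 each). The log2 fold change was −1.27 (SE 0.17, 95% interval −1.66 to −0.88; limma adjusted p = 0.000793), or 2.41-fold lower.

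Mylip (plus strand, chr13:45389740-45412019) encodes a ubiquitin ligase that sends lipoprotein receptors to degradation and is induced by the liver X receptors (LXRs). It read 979, 1178 and 872 in control-labelled and 1264, 986 and 1089 in mutant-labelled libraries, which overlap. The log2 fold change was 0.14 (SE 0.16, 95% interval −0.21 to 0.50; limma adjusted p = 0.510), with means of 1009.8 ± 155 and 1113 ± 141 (SD, n = 3 each).

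**Figure D3:**
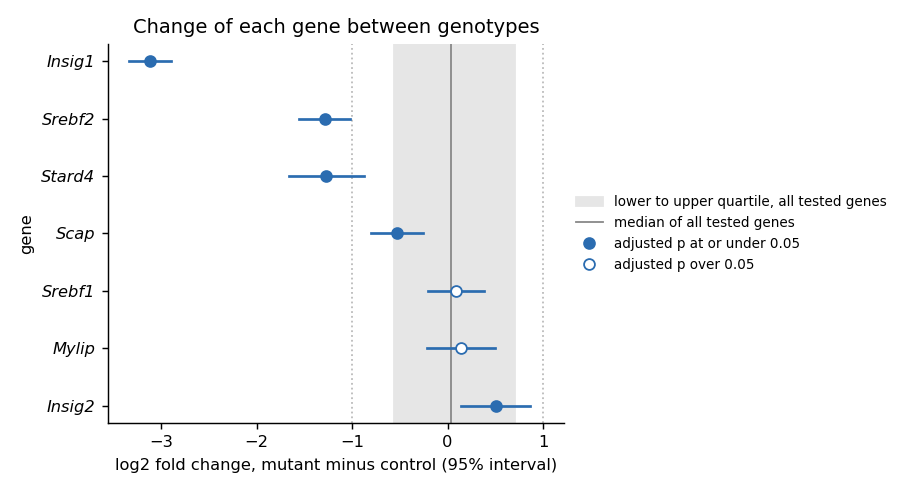
Log2 fold change, mutant minus control (horizontal axis), with its 95% interval from limma for each of the 7 genes; filled points have an adjusted p of at most 0.05, the grey band runs from the lower to the upper quartile of all 25802 tested genes, and dotted lines mark 2-fold. Insig1 at −3.12, Srebf2 at −1.29 and Stard4 at −1.27 lie outside the band on the left, and the other 4 points lie within it.

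The lists of genes around the 7 held 75 further genes, all of which were tested, and 38 of these were called at 2-fold, 32 lower and 6 higher, where 10.4% and 13.9% of all tested genes were. The listed cholesterol synthesis enzymes fell almost throughout: 19 of 20 were at least 2-fold lower and 20 of 20 lower by adjusted p (16.0% of all tested genes), with a median log2 fold change of −2.84 against 0.03 over all tested genes. They ranged from −3.58 for Tm7sf2, a sterol reductase, to −0.97 for Ebp, a sterol isomerase.

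When the mean log2 value of the 20 enzymes was subtracted within each library, Insig1 had 1.34 ± 0.02 with the control label and 0.95 ± 0.18 with the mutant label (SD, n = 3 each), a difference of −0.39 with no overlap, so it fell further than their mean. On the same scale Srebf2 differed by 1.43 and Stard4 by 1.45, so both fell less than the mean of the enzymes, although further than Ebp. The differences were 2.19 for Scap, 2.81 for Srebf1, 2.87 for Mylip and 3.23 for Insig2. Among mutant-labelled libraries, replicate 1 had the highest value of 18 of the 20 enzymes, and it also had the highest value of Srebf2, Scap, Srebf1 and Mylip but not of Insig1, Insig2 or Stard4.

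**Figure D4:**
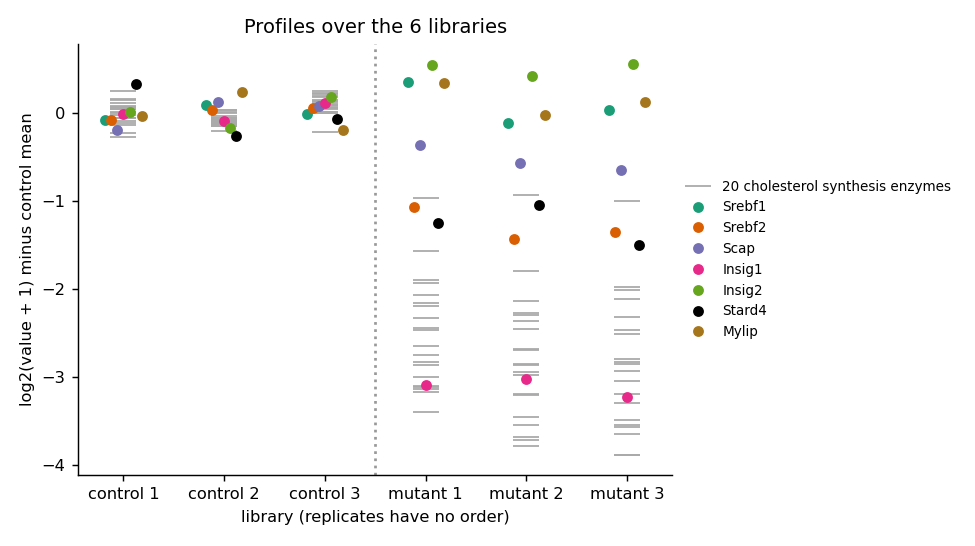
Log2(value + 1) of the 7 genes (coloured points) and of the 20 cholesterol synthesis enzymes (grey bars) in each library, each gene relative to its own mean over the control-labelled libraries (vertical axis). In the mutant-labelled libraries Insig1 lies among the enzymes, Srebf2 and Stard4 lie just under the least changed of them, Ebp, and the other 4 genes lie above all of them.

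The genes whose profile over the 6 libraries was most like that of a member were found by the root mean square difference of log2(value + 1), each gene centred on its own mean. The 3 nearest to Insig1 among all tested genes with a symbol were Acat2 (0.096), Idi1 (0.134) and Fdps (0.145), and all 3 are in the enzyme list. Acat2, which joins acetyl-CoA units, read 14402, 13518 and 17471 in control-labelled and 2064, 1912 and 1643 in mutant-labelled libraries. The nearest to Srebf2 were Nsmf (0.016), Gm2a (0.023) and Clasp2 (0.025), and no listed gene was among them. For Stard4 they were Gm7977 (0.096), Actr3b (0.097) and Fam198a (0.108). The nearest to Scap were Mrps12, Auh and Ino80b, to Insig2 Pwp2, As3mt and Mapk1ip1l, to Srebf1 Nploc4, Keap1 and Grina, and to Mylip C1qb, Zfp319 and Otud3. Between the members themselves the closest pair was Srebf1 and Mylip, at 0.109. With 6 libraries in 2 groups, many genes share such a profile.

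Genes for the processing and turnover of SREBPs, SCAP and INSIGs moved in both directions and mostly by less than 2-fold: of 14, 1 was at least 2-fold lower and 0 higher, with a median log2 fold change of −0.02. Over all tested genes 10.4% were lower and 13.9% higher by this rule, so the count was near the background. The 1 called was Rnf145, a ubiquitin ligase known to act on SCAP, which read 1759, 1998 and 1973 in control-labelled and 831, 734 and 695 in mutant-labelled libraries (log2 fold change −1.34, SE 0.12; limma adjusted p = 0.000107). By adjusted p, 3 of the 14 were lower and 2 higher, beside 16.0% and 19.0% of all tested genes. Mbtps1, the protease that makes the first cut in SREBPs, fell by 0.72 on the log2 scale (limma adjusted p = 0.000413), whereas Mbtps2, which makes the second, had 0.47 with an adjusted p of 0.313 in limma. Erlin1, whose product restrains SREBP activation, had the highest value, 0.76 (SE 0.13; limma adjusted p = 0.00295).

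Of 9 LXR receptors, partners and targets, 2 were at least 2-fold higher and 1 lower, beside 13.9% and 10.4% of all tested genes. By adjusted p, 4 were lower (Apoe, Lpcat3, Nr1h2 and Rxrb) and 2 higher, beside 16.0% and 19.0% of all tested genes. Nr1h3, which encodes LXRα, read 125, 130.4 and 112 in control-labelled and 577, 757 and 498 in mutant-labelled libraries (log2 fold change 2.29, SE 0.22; limma adjusted p = 0.000129). Abca1, the cholesterol exporter, had 1.27 (SE 0.30; limma adjusted p = 0.0118), and Apoe, the apolipoprotein, had −1.08 (SE 0.15; limma adjusted p = 0.000992). Mylip, also an LXR target, had overlapping groups as given above, and the median of the list was −0.27.

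Uptake and intracellular transport genes had few calls in either direction at 2-fold, where 10.4% of all tested genes were lower and 13.9% higher. Of 8 lipoprotein receptors and adaptors, 1 was at least 2-fold lower and 0 higher: Scarb1, a receptor for high-density lipoprotein, read 14645, 16543 and 18169 in control-labelled and 6658, 6519 and 4834 in mutant-labelled libraries (log2 fold change −1.46, SE 0.14; limma adjusted p = 0.000141). By adjusted p, 2 of the 8 were lower and 1 higher, beside 16.0% and 19.0% of all tested genes. Vldlr, another receptor, had 0.72 (SE 0.12; limma adjusted p = 0.002). Of 10 genes of intracellular cholesterol transport, 1 was lower and 1 higher at 2-fold, and 2 were lower and 3 higher by adjusted p, beside the same 16.0% and 19.0%. Npc1, which exports cholesterol from lysosomes, had −1.79 (SE 0.12; limma adjusted p = 1.97e-05) and Stard6, which like Stard4 belongs to the START domain family, had 1.36 (SE 0.42; limma adjusted p = 0.0356). The family members Stard3 and Stard5 had 0.04 and 0.44, so that none of these 3 had a value under 0.

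Of 14 fatty acid and triglyceride genes known as SREBP targets, 9 were at least 2-fold lower and 3 higher, with a median of −1.50, where 10.4% of all tested genes were lower and 13.9% higher. By adjusted p, 10 were lower and 1 higher, beside 16.0% and 19.0%. Elovl6, a fatty acid elongase, had the most negative value at −4.25 (SE 0.22), and Fasn, the fatty acid synthase, had −2.41 (SE 0.15). The 3 higher were Me1, which makes NADPH, at 1.45 (SE 0.23; limma adjusted p = 0.00181), and Thrsp and Pnpla3, whose limma adjusted p-values of 0.0504 and 0.103 missed 0.05. Srebf1, whose product drives this group in many tissues, was the member with the smallest change.

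**Figure D5:**
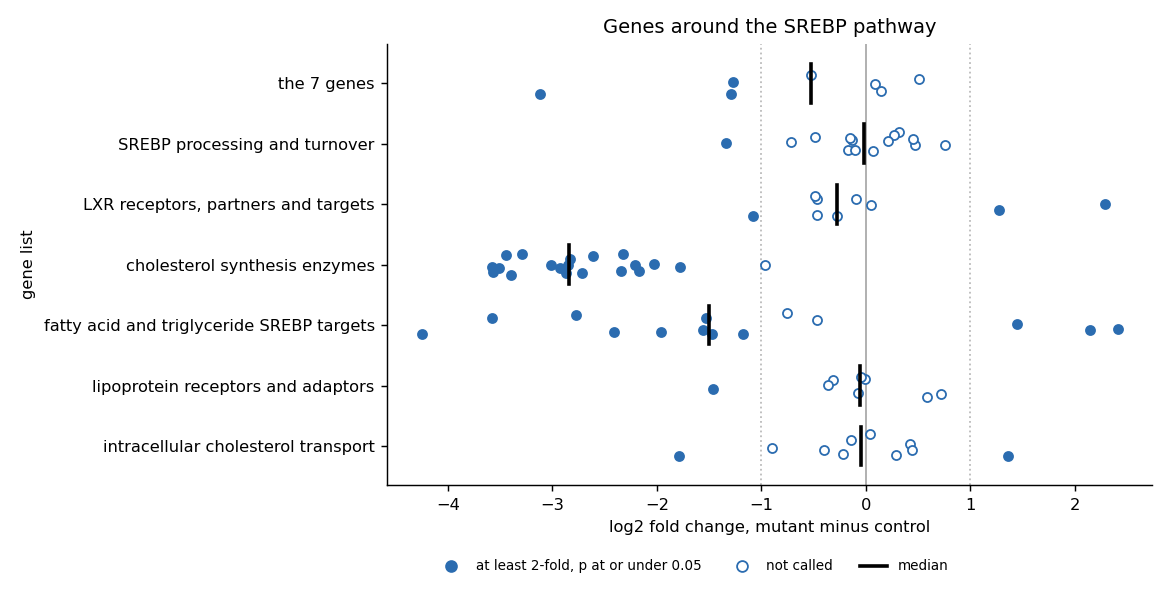
Log2 fold change, mutant minus control (horizontal axis), of the 7 genes and of each gene in the 6 surrounding lists; filled points passed 2-fold with p of at most 0.05, black bars are medians and dotted lines mark 2-fold. The enzyme list is centred at −2.84 and the fatty acid list at −1.50, whereas the medians of the other 4 lists lie between −0.27 and −0.02.

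Markers of several cell types moved with genotype beside these results, and their counts stand beside 10.4% of all tested genes lower and 13.9% higher at 2-fold. Among 6 SC markers, 4 were at least 2-fold lower, while Sox10, which marks the SC lineage, had −0.71 (SE 0.16) and Cdh19 0.13 (SE 0.14). Among 6 skeletal muscle markers all 6 were at least 2-fold higher, the summed value being 5914 to 29989 in control-labelled and 39429 to 294039 in mutant-labelled libraries, and 4 of 5 erythroid markers were lower. Of 6 macrophage markers 2 were at least 2-fold lower, Mrc1 at −2.27 and Csf1r at −1.25, while C1qa had 0.56, and their sum was 15798 to 20031 with the control label and 14079 to 16857 with the mutant label. Of 5 lymphocyte markers 4 were tested and 2 were higher, Ncr1 and Cd8a. Ncr1 was listed at 0 in every control-labelled library and at 37.6 to 75.3 in mutant-labelled ones, and Cd8a at 0 and at 5.93 to 20.4. Both reached the mean of 10 needed for testing only in the mutant-labelled libraries, so a higher value was built into their test. The 6 fibroblast markers ranged from −1.10 for Col1a1, the 1 called, to 0.92 for Dpt, with a median of 0.08. The 4 perineurial markers ranged from −1.62 for Itgb4, the 1 called at 2-fold, to 0.54 for Cldn1, which was higher by adjusted p (limma adjusted p = 0.00723), with a median of −0.13. Of 5 endothelial markers 0 were called at 2-fold, but all 5 had values above 0 (median 0.29) and Kdr, at 0.81, was higher by adjusted p (limma adjusted p = 0.0331). Of 4 pericyte and smooth muscle markers 0 were called by either rule. Of 6 adipocyte markers 0 were called, although their sum was highest in mutant replicate 2 (23874) and control replicate 1 (11553) against 3177 to 5448 in the other 4 libraries. Without both of these libraries Insig1, Srebf2 and Stard4 were again called at 2-fold, and the adjusted p of Insig2 was 0.0882 in limma. The part of these markers, the adipocyte ones included, in the changes of the 7 genes was not tested.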

How the data were processed

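Poly(A) RNA libraries were made with an oriented (strand-keeping) kit and sequenced on an Illumina HiSeq. The authors aligned reads with STAR 2.4.0 to mm10, counted those on constitutive regions of FAST DB genes and normalised them with DESeq2; the deposited signal values are counts divided by library size factors. Dividing each library by its smallest step gave whole reads for 100% of values (tolerance 0.01 read), which served the count models only. Precision rests on 3 animals per genotype. The limma p-values set each difference against a spread between animals that was estimated in part from all tested genes.

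Members were matched after splitting joined symbols. The 7 genes and all lists were chosen with earlier results of these data known. limma 3.58.1 (R 4.3.3, trended prior) was fitted on log2(value + 1) over genes with a mean of at least 10 in a genotype, with Benjamini-Hochberg adjustment over all of them, after a check on simulated data. Genes were called at p of at most 0.05 with at least a 2-fold change (the limits of the study's methods), or at an adjusted p of at most 0.05. Ratios within libraries were tested by exact permutation. Named were the 7 genes, Adar, genes called or extreme in each list, selected known examples and the 3 nearest profiles per member. In the lists, some examples passed the adjusted p only (Ebp, Mbtps1, Erlin1, Vldlr, Stard5, Nr1h2, Rxrb, Lpcat3, Sox10, C1qa, Cldn1, Kdr). Others passed neither limit (Mbtps2, Stard3, Dpt, Cdh19). All of these were chosen after their values were seen. Among them, Ebp, Erlin1, Vldlr, C1qa, Cldn1, Kdr, Dpt and Cdh19 were also the highest of their lists. Alternatives were edgeR 4.0.16, DESeq2 1.42.0, other scalings, filters, pseudocounts and priors, a replicate block and leaving out libraries. Figures used matplotlib 3.10.9.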

Additional observations from a re-analysis of the deposited data

How the results depend on the processing

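The 3 genes called at 2-fold (Insig1, Srebf2 and Stard4 under the fit reported) numbered 3 in all 18 alternatives, and these 3 had an adjusted p of at most 0.05 in every one; their log2 fold changes ranged from −3.18 to −2.95, −1.39 to −1.12 and −1.40 to −1.10. The count by adjusted p was 5 in the fit reported, 3 with an untrended prior, which gave Scap 0.0577 and Insig2 0.0543, and 4 to 5 when 1 library was left out. For Insig2 the adjusted p was also 0.0646 with libraries scaled to the same 75th percentile. edgeR and DESeq2 on whole reads each called 3 genes at 2-fold and 5 by adjusted p. The sign of Srebf1, never called, turned to −0.046 without mutant replicate 1. Of the 75 surrounding genes 35 to 39 were called. Scaling to equal totals moved the median of all tested genes to 0.19.

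Replicate numbers name different animals, and same-numbered libraries did not deviate together (r from −0.06 to 0.01). With the replicate block 3 members were called at 2-fold and 4 by adjusted p, Insig2 having 0.0713. Leaving out both libraries with the most adipocyte marker reads was chosen after seeing the data. One value per gene limits what can be said of isoforms, and 3 animals per genotype limit the exact permutation tests of ratios to p = 0.1.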
